A study of Mus musculus with 7 samples.

Results

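The genes described here are 9 parts of the phosphoinositide kinase, AKT and mTOR pathway, namely Pik3cd, Pik3cg, Pik3r1, Pik3r5, Akt1, Akt2, Mtor, Rptor and Foxo3. They were taken by name from 55385 gene IDs and were all present, and all 9 passed the filter on low counts. RNA was sequenced from macrophages sorted out of intracranial gliomas in C57BL/6 mice. The tumours arose from 100000 injected QPP7 cells that carried an shChi3l1 hairpin, directed at Chi3l1 (3 libraries), or the shSC control hairpin (4 libraries). QPP7 is a mouse glioma line. Chi3l1 encodes a secreted chitinase-like glycoprotein. The hairpin was carried by the injected cells, and the macrophages of both groups came from hosts for which the labels give no altered gene and no age. Replicates 1 to 3 carry the same numbers under both hairpins and are named as pairs in the labels, which state no shared day, animal or litter. Nothing in the labels says that each library was a separate mouse, so p-values cover only how far these libraries spread, which may be partly technical.

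Reads assigned to genes ran from 23174989 to 36502664 in shChi3l1 and from 19169129 to 32590781 in shSC libraries. Chi3l1 itself had 1.19, 0.921 and 0.285 CPM in shChi3l1 libraries 1 to 3, against 0.816, 0.790, 0.819 and 0.774 CPM in shSC libraries 1 to 4, and since the hairpin was in the tumour cells this is no check of the knockdown. Levels are in CPM, which scale each gene's reads to the library's total after TMM normalisation. All 10 macrophage markers had reads in every library, with a summed level of 20050 to 23910 CPM in shChi3l1 and 12210 to 20410 CPM in shSC libraries. Markers of lymphocytes, which also use the leukocyte forms of the kinase, had far lower summed levels. Sums over lists of different genes do not measure the share of each cell type. The 7 B-cell markers summed to 67.6 to 322 CPM in shChi3l1 and 30.3 to 194 CPM in shSC libraries, and the 10 T and NK-cell markers to 110.5 to 519 CPM in shChi3l1 and 77.4 to 711 CPM in shSC libraries. The 7 neutrophil markers summed to 85.2 to 145 CPM in shChi3l1 and 42.1 to 121 CPM in shSC libraries. Sums were larger for the 6 monocyte markers, at 1078 to 3388 CPM in shChi3l1 and 505 to 2243 CPM in shSC libraries. For the 7 dendritic-cell markers they were 548 to 852 CPM in shChi3l1 and 263 to 1341 CPM in shSC libraries. No marker of any list was at 0 in all 7 libraries, although 5 of the 7 neutrophil markers lacked reads in at least 1. Microglia markers were highest in shChi3l1 3 at 3653 CPM, and glioma and glial markers in shSC 4 at 294 CPM.

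Class I phosphoinositide kinases phosphorylate a lipid of the inner plasma membrane, and the product recruits AKT, which is then activated there. AKT phosphorylates FOXO transcription factors, which leave the nucleus, and inactivates the TSC complex, which releases mTOR complex 1 to drive protein synthesis and growth. In macrophages the pathway carries signals from the CSF1 receptor, integrins and chemokine receptors for survival, migration and metabolism. Messenger RNA does not measure the phosphorylation through which these proteins act.

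Start-site sequence is shown for 3 members, Rptor and Pik3cg because they varied most between libraries, and Akt1 because it varied least. Each window runs from 250 bases before to 50 after a transcript start in RefSeq (GRCm38.p6), 5′ to 3′ on the strand of the gene, and all 9 members had at least 1 window. Capitals mark the FOXO motif GTAAACA and the core GAGGAA of PU.1 and other ETS factors, each on either strand, and the 2 do not overlap where they are found here. The Pik3cg window is the second of its 2, on the minus strand at chr12:32208421-32208720. The Akt1 window is the first of its 2, on the minus strand at chr12:112674835-112675134. The Rptor window is its only one, on the plus strand at chr11:119602655-119602954.
Pik3cg: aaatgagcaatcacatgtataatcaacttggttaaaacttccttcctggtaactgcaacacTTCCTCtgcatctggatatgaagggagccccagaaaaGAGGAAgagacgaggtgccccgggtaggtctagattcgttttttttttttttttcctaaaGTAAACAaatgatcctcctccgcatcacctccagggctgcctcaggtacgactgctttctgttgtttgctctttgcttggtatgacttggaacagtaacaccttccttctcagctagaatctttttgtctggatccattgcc
Akt1: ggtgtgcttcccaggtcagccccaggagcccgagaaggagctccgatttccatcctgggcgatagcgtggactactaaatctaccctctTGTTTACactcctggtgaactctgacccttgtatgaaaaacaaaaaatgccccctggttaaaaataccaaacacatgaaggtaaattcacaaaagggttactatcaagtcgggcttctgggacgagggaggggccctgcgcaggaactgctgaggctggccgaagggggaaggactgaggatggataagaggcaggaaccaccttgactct
Rptor: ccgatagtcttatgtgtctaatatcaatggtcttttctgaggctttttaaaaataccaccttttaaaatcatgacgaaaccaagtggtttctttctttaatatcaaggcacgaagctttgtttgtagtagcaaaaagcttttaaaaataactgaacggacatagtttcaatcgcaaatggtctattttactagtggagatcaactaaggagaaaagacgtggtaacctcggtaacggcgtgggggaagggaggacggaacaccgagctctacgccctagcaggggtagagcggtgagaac

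FOXO factors bind the first motif in genes they activate, and PU.1 is the ETS factor that macrophages depend on. Pik3cg had both, with GTAAACA at position -92 from the transcript start and GAGGAA, read on either strand, at -189 and -152. In the first Pik3cg window, whose start lies upstream, the same 2 ETS cores fall just after the start, at positions 1 and 38. Akt1 had the FOXO motif on the opposite strand, at position -161, and no ETS core in either window. Rptor had neither. GTAAACA was present in windows of 2 of 9 members and in 4.05% of the 27025 genes with a window. By window it was in 2 of the members' 17, beside 3.65% of 32851 windows. GAGGAA was present in windows of 4 of 9 members, namely Pik3cg, Akt2, Mtor and Foxo3, and in 31.3% of genes. By window it was in 6 of 17, beside 28.3% of all windows, and the 2 Pik3cg windows share their cores. Pik3cd, Pik3r5 and Rptor, which varied between libraries along with Pik3cg, held neither set of letters in these windows. These matches describe letters and were not tested for binding.

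Between the hairpins none of the 9 genes passed the test, whereas 4 of them varied widely from library to library within each hairpin. As a set the members did not vary more than other genes. Their median log2 range over the 7 libraries was 1.67, beside 1.92 over all tested genes, and 4 of 9 members exceeded the latter. EdgeR's quasi-likelihood test called 0 of 9 members at an adjusted p of 0.05, beside 0% of all 15448 tested genes. At an unadjusted p under 0.05 it had 0 of 9 members and 229 of all genes, which is 1.48%. The groups overlapped in all 9 members, and 2.49% of all tested genes had groups that did not overlap. DESeq2's Wald test called 1 gene in all with 350 at an unadjusted p under 0.05, and limma's voom with sample quality weights called 0 with 701 at that level, and neither called a member. The log2 fold change was above 0 in 7 of 9 members, although Akt1 and Akt2 fell on the other side of 0 under DESeq2 size factors. The median of the 9 was 0.05, beside 0.07 over all tested genes. Over the 15 alternative fits it ran from -0.08 without shChi3l1 2 to 0.30 without shChi3l1 1. It was 0.11 without shChi3l1 3, -0.0043 without shSC 1, 0.16 without shSC 2, 0.18 without shSC 4 and 0.22 with the replicate block. A test with no call does not show that levels were equal, and the standard errors given with each gene show how wide the spread was.

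**Figure D1:**
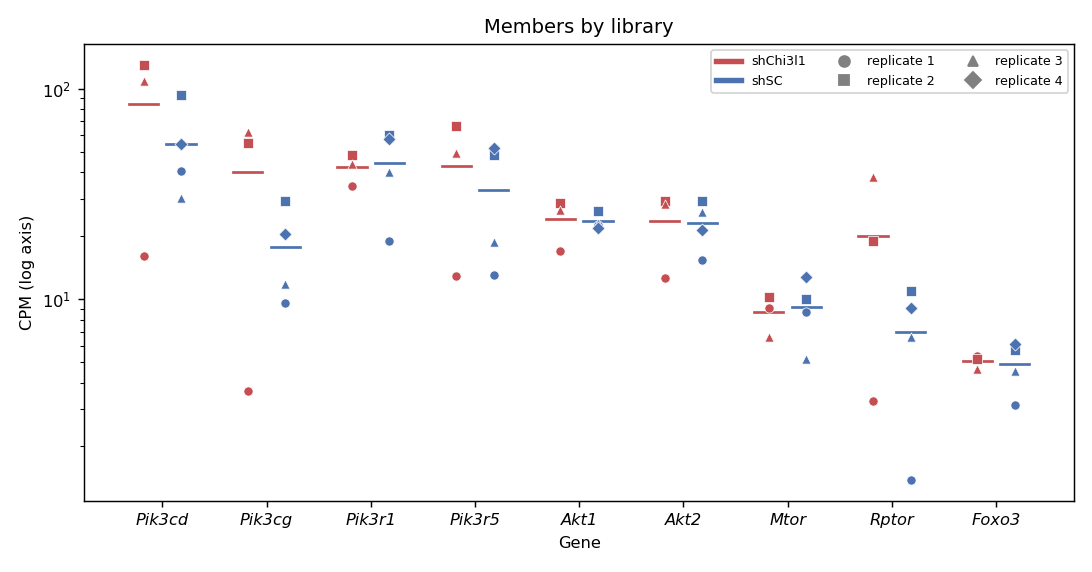
Level of each gene in every library, in CPM on a log axis, with shChi3l1 libraries at the left and shSC libraries at the right of each gene, marker shapes for replicate numbers and lines for group means. Pik3cd, Pik3cg, Pik3r5 and Rptor are spread widely in both groups, Rptor from 1.38 to 37.9 CPM, while Akt1 lies between 17.0 and 28.6 CPM in all 7 libraries.

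Pik3cd encodes the delta catalytic subunit, the form that leukocytes use downstream of tyrosine kinase receptors (ENSMUSG00000039936.18, mm10 chromosome 4, 149649168 to 149702571, minus strand). It had 16.1, 130 and 108 CPM in shChi3l1 libraries 1, 2 and 3, against 40.6, 92.8, 30.3 and 54.7 CPM in shSC libraries 1 to 4. The lowest and the 2 highest values were thus all in shChi3l1 libraries, on either side of the whole shSC range. ShChi3l1 libraries averaged 84.6 ± 60.4 CPM (SD, n = 3) and shSC libraries 54.6 ± 27.4 CPM (SD, n = 4). The log2 fold change was 0.63 (SE 0.65), with an edgeR adjusted p of 0.9998. It depended on single libraries, at 1.09 without shChi3l1 1 and 0.18 without shChi3l1 2.

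Pik3cg encodes the gamma catalytic subunit, which G protein beta-gamma dimers activate downstream of chemokine receptors (ENSMUSG00000020573.17, chromosome 12, 32173473 to 32208659, minus strand). Its levels were 3.66, 54.9 and 62.0 CPM in shChi3l1 libraries 1 to 3, against 9.57, 29.1, 11.8 and 20.5 CPM in shSC libraries 1 to 4. As for Pik3cd, shChi3l1 1 lay below every shSC library and the other 2 shChi3l1 libraries lay above every one. ShChi3l1 1 was the lowest library in 5 of 9 members, beside 21.6% of all tested genes. The share of all genes with the whole pattern was not counted. ShChi3l1 libraries averaged 40.2 ± 31.9 CPM (SD, n = 3) and shSC libraries 17.7 ± 8.90 CPM (SD, n = 4). The fitted log2 fold change was 1.18 (SE 0.78), with an edgeR adjusted p of 0.9998. Without shChi3l1 1 it was 1.69 at an unadjusted edgeR p of 0.00396, which did not pass the adjustment over all genes. The replicate block gave 0.70 and the length-trend offsets with the block 0.50, less than the value over all 7 libraries by over 1.5 times. Of the other catalytic genes of the class, Pik3cb, which encodes the beta subunit, had a log2 fold change of 0.36 (SE 0.53) and Pik3ca, which encodes the alpha subunit, one of 0.02 (SE 0.51).

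Regulatory subunits bind the catalytic ones, and those of the gamma form differ from those that the alpha, beta and delta forms share. Pik3r5 encodes the adaptor that couples the gamma form to G proteins (ENSMUSG00000020901.13, chromosome 11, 68432121 to 68497849, plus strand). It had 12.9, 66.3 and 49.6 CPM in shChi3l1 libraries 1 to 3, against 13.0, 48.5, 18.6 and 52.0 CPM in shSC libraries 1 to 4. The 2 lowest values were those of replicate 1 under each hairpin, and they were almost the same. Its log2 fold change of 0.38 (SE 0.64) turned to -0.08 without shChi3l1 2, and the edgeR adjusted p was 0.9998 with all libraries. Pik3r6, the other adaptor of the gamma form, was at 0.58 (SE 0.49).

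Pik3r1 encodes the regulatory subunit that stabilises the alpha, beta and delta forms and docks them to phosphorylated tyrosines (ENSMUSG00000041417.15, chromosome 13, 101680563 to 101768217, minus strand). It had 34.3, 48.3 and 44.0 CPM in shChi3l1 libraries 1 to 3, against 18.9, 60.2, 40.2 and 57.7 CPM in shSC libraries 1 to 4. All 3 shChi3l1 libraries lay inside the shSC range, unlike those of Pik3cd and Pik3cg. Averages were 42.2 ± 7.21 CPM for shChi3l1 (SD, n = 3) and 44.2 ± 19.1 CPM for shSC (SD, n = 4). The fitted log2 fold change was -0.07 (SE 0.42), with an edgeR adjusted p of 0.9998, and its sign turned in 5 of 15 alternative fits. Pik3r2, a close relative of Pik3r1 in the same role, had 4.04 CPM in shChi3l1 1 and 37.7 to 41.5 CPM in the other 2 shChi3l1 libraries, against 14.0 to 34.5 CPM in shSC libraries. As for Pik3cd and Pik3cg, shChi3l1 1 was below and the other 2 shChi3l1 libraries above every shSC library.

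AKT kinases showed the narrowest spread together with Foxo3. Akt1 encodes the most widely expressed of the AKT kinases (ENSMUSG00000001729.14, chromosome 12, 112653821 to 112674884, minus strand). It had 17.0, 28.6 and 26.6 CPM in shChi3l1 libraries 1 to 3, against 22.6, 26.3, 23.0 and 21.8 CPM in shSC libraries 1 to 4. The highest library was 1.68-fold above the lowest. Its log2 fold change was 0.04 (SE 0.32), with an edgeR adjusted p of 0.9998, and its sign turned in 11 of 15 alternative fits.

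Akt2, best known for its part in insulin action (ENSMUSG00000004056.15, chromosome 7, 27591552 to 27640826, plus strand), had 12.6, 29.3 and 28.2 CPM in shChi3l1 libraries 1 to 3. In shSC libraries 1 to 4 it had 15.4, 29.1, 25.9 and 21.2 CPM. Again the replicate 1 libraries of both hairpins were the 2 lowest. The log2 fold change was 0.03 (SE 0.40), with the same adjusted p as Akt1, and 11 of 15 alternative fits turned its sign. Of all pairs of members, Akt1 and Akt2 had the most similar course over the 7 libraries, with a root mean square distance of 0.268 between their gene-centred log2 CPM.

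Mtor encodes the kinase shared by mTOR complexes 1 and 2 (ENSMUSG00000028991.15, chromosome 4, 148448611 to 148557683, plus strand). It had 9.11, 10.2 and 6.63 CPM in shChi3l1 libraries 1 to 3, against 8.72, 9.97, 5.22 and 12.7 CPM in shSC libraries 1 to 4. Replicate 3 was the lowest library under both hairpins, and the shChi3l1 values all lay within the shSC range. The log2 fold change was -0.08 (SE 0.40), with an edgeR adjusted p of 0.9998 and a sign that turned in 4 of 15 alternative fits.

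Rptor encodes raptor, the scaffold that presents substrates to mTOR complex 1 (ENSMUSG00000025583.15, chromosome 11, 119602905 to 119899576, plus strand). It had the widest spread of the 9 genes and the largest fitted difference between the hairpins. Its levels were 3.28, 18.8 and 37.9 CPM in shChi3l1 libraries 1 to 3, against 1.38, 10.9, 6.59 and 9.03 CPM in shSC libraries 1 to 4. These values rest on 77, 632 and 931 reads in shChi3l1 and on 39, 386, 193 and 210 reads in shSC libraries. The highest 2 were in shChi3l1, but shChi3l1 1 lay below 3 of the 4 shSC libraries. Averages were 20.0 ± 17.3 CPM for shChi3l1 (SD, n = 3) and 6.97 ± 4.12 CPM for shSC (SD, n = 4). The log2 fold change was 1.52 (SE 0.81), with an unadjusted edgeR p of 0.0936 and an adjusted p of 0.9998. Leaving out shChi3l1 3 brought it to 0.67, and leaving out shChi3l1 1 to 2.01. ShChi3l1 3 also had the highest summed markers of microglia, B cells, neutrophils, endothelium and pericytes with fibroblasts. The part of those cells in the Rptor level was not tested. The antisense gene Rptoros overlaps 0.624% of Rptor exon bases, and unstranded reads there cannot be assigned to either.

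Foxo3 encodes the FOXO factor that AKT holds in the cytoplasm and that otherwise drives genes of cell-cycle arrest and stress resistance (ENSMUSG00000048756.11, chromosome 10, 42181841 to 42276755, minus strand). It had 5.36, 5.20 and 4.68 CPM in shChi3l1 libraries 1 to 3, against 3.16, 5.73, 4.57 and 6.15 CPM in shSC libraries 1 to 4. All shChi3l1 values fell within the shSC range. Averages were 5.08 ± 0.359 CPM for shChi3l1 (SD, n = 3) and 4.90 ± 1.34 CPM for shSC (SD, n = 4), and the log2 fold change was 0.05 (SE 0.39) with an edgeR adjusted p of 0.9998. Foxo1, the FOXO gene best known in liver and lymphocytes, ranged from 4.00 to 12.1 CPM in shChi3l1 and from 2.16 to 10.2 CPM in shSC libraries.

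**Figure D2:**
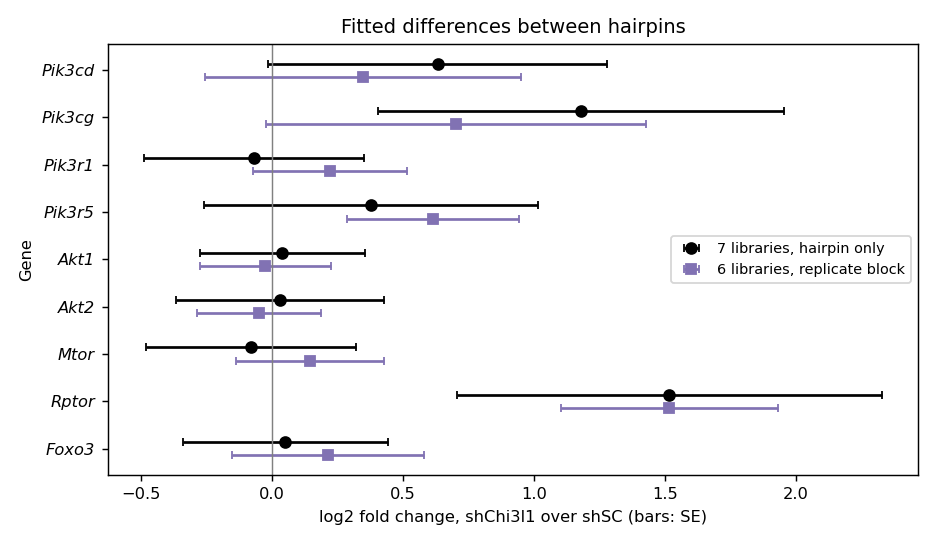
Log2 fold change of shChi3l1 over shSC for each gene with bars of 1 standard error, for the fit over 7 libraries and for the fit with the replicate block over 6. Rptor stands at 1.52 in both fits, with SEs of 0.81 and 0.41, while Akt1, Akt2, Mtor, Pik3r1 and Foxo3 lie near 0 and change sign between fits or under other settings.

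Within same-numbered replicates, shChi3l1 minus shSC differences went both ways for most genes. Rptor was higher in shChi3l1 in all 3 pairs, with log2 CPM differences of 1.24, 0.78 and 2.52 in pairs 1, 2 and 3. Mtor was also higher in all 3 pairs, but only by 0.06, 0.04 and 0.34. That is 2 of 9 members, and 12.5% of all tested genes were higher in shChi3l1 in every pair. Pik3cd differed by -1.34, 0.48 and 1.83 in the 3 pairs, and Pik3cg by -1.38, 0.92 and 2.39. These 2 catalytic genes were therefore lower in shChi3l1 in pair 1 and higher in pairs 2 and 3. Pik3r1 and Foxo3 did the opposite in pair 1, with differences of 0.86 and 0.76. With the replicate block, Rptor had a log2 fold change of 1.52 (SE 0.41) at an unadjusted edgeR p of 0.0104, the only 1 of 9 members under 0.05, where 2.91% of 14950 genes were. Its adjusted p there was 1.00, so it did not pass. The block uses 6 libraries and leaves out shSC 4.

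**Figure D3:**
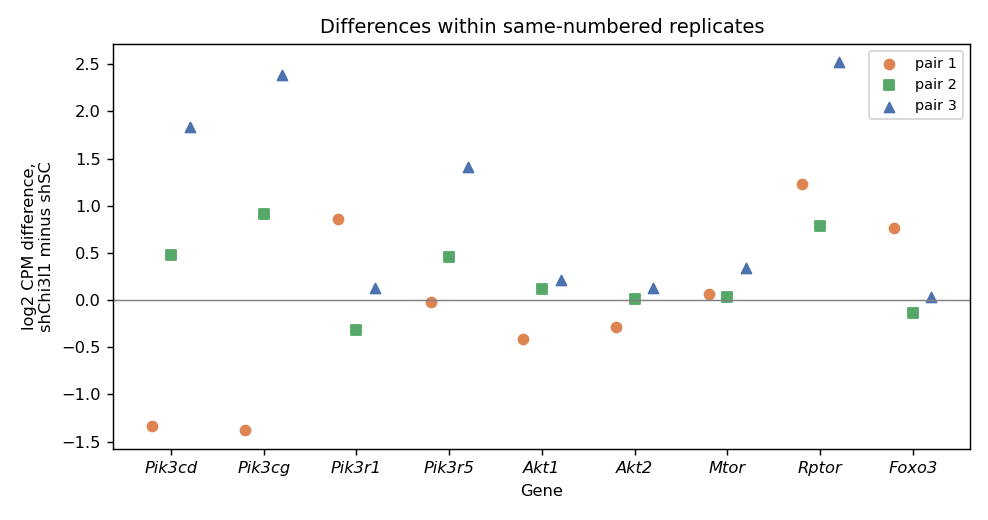
Difference in log2 CPM, shChi3l1 minus shSC, within same-numbered replicates for each gene, with a marker shape and colour for each pair. Rptor lies above 0 in all 3 pairs at 0.78 to 2.52, whereas Pik3cd and Pik3cg lie at -1.34 and -1.38 in pair 1 and above 0 in the other 2.

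For every member the range within the shSC libraries alone, on the log2 scale, was larger than the fitted difference between hairpins. The highest library exceeded the lowest by 27.4-fold for Rptor, 16.95-fold for Pik3cg, 8.08-fold for Pik3cd and 5.16-fold for Pik3r5. It did so by 3.19-fold for Pik3r1, 2.44-fold for Mtor, 2.32-fold for Akt2, 1.95-fold for Foxo3 and 1.68-fold for Akt1. Replicate 2 was above replicate 1 under both hairpins in 8 of 9 members, all but Foxo3, and in 39.7% of all tested genes. This count was chosen after the values were seen and has no test. Replicate 2 exceeded replicate 1 by 3.90 on the log2 scale in shChi3l1 and 1.60 in shSC for Pik3cg, and 2.51 in shChi3l1 and 2.96 in shSC for Rptor. For Mtor the difference was 0.17 in shChi3l1 and 0.19 in shSC.

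Library composition also differed between replicates. Genes with over 5000 bases of exon took 12.6%, 20.7% and 18.6% of reads in shChi3l1 libraries 1 to 3, against 14.8%, 19.9%, 16.8% and 19.8% in shSC libraries 1 to 4. Ribosomal protein genes, whose transcripts are short, took 6.17%, 1.97% and 2.79% in shChi3l1 libraries 1 to 3, against 5.71%, 2.40%, 3.30% and 4.56% in shSC libraries 1 to 4. Replicate 1 thus had the lowest long-gene share and the highest ribosomal share under each hairpin. The members are long, with a median exon length of 7571 bases against 3778 over all tested genes. After each library's trend with exon length was subtracted, the log2 range over the 7 libraries was 3.53 in place of 4.08 for Pik3cg, 3.62 in place of 4.76 for Rptor and 2.32 in place of 3.01 for Pik3cd. For Pik3r1 it was 0.53 in place of 1.67, and for Mtor 1.42 in place of 1.28. The range over libraries thus narrowed for Pik3cg, Rptor, Pik3cd and most of all Pik3r1, and widened for Mtor. The excess of replicate 2 over replicate 1 became 3.13 in shChi3l1 and 0.58 in shSC for Pik3cg. For Pik3cd it became 2.32 in shChi3l1 and 0.40 in shSC, in place of 3.01 in shChi3l1 and 1.19 in shSC. For Rptor it became 1.78 in shChi3l1 and 1.62 in shSC. After the correction Pik3r1, Akt1 and Mtor no longer had replicate 2 above replicate 1 under both hairpins, and Mtor and Foxo3 were lower in replicate 2 under both. Monocyte markers were also highest in replicate 1 under each hairpin. They summed to 3388, 1231 and 1078 CPM in shChi3l1 libraries 1 to 3. In shSC libraries 1 to 4 they summed to 2243, 1021, 1488 and 505 CPM. The part of monocytes in the members' levels was not tested, and that of library composition was not tested further. In a bulk sort, fewer cells that express a gene and less of its RNA per cell cannot be told apart.

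**Figure D4:**
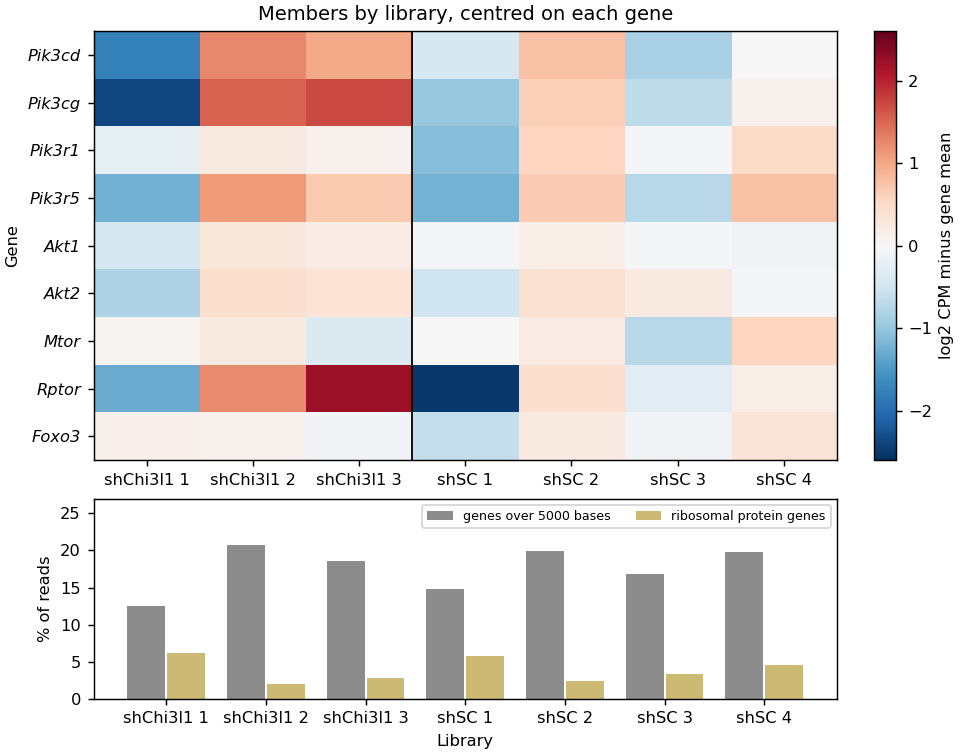
Top, log2 CPM of each gene minus its mean over the 7 libraries, with shChi3l1 libraries left of the line and shSC libraries right of it. Bottom, percent of reads in genes with over 5000 exon bases and in ribosomal protein genes, where replicate 1 of each hairpin has the lowest long-gene share (12.6% in shChi3l1 and 14.8% in shSC) beside low Pik3cg, Pik3r5, Akt2 and Rptor.

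Levels can be compared between genes only per length, so TPM values, which divide reads by exon length and scale each library to the same sum, were computed with the exon lengths in the files. Pik3cd was the most abundant per length at 28.5 ± 21.9 TPM (SD, n = 3) in shChi3l1 and 20.0 ± 11.95 TPM (SD, n = 4) in shSC libraries, and it exceeded the next gene, Pik3r5, in 6 of 7 libraries. By the mean over all 7 libraries the order continued with Akt1, Pik3r1, Pik3cg, Akt2, Rptor, Mtor and Foxo3, but its middle and end differed between the groups. Pik3cg averaged above Pik3r1 in shChi3l1 libraries, at 10.2 ± 8.38 against 8.18 ± 3.00 TPM (SD, n = 3). It averaged below Akt2 in shSC libraries, at 4.90 ± 2.94 against 7.28 ± 2.57 TPM (SD, n = 4). In shSC libraries Rptor was the lowest of the 9, and it exceeded Mtor in 2 of all 7 libraries. Foxo3 had 1.27 ± 0.250 TPM (SD, n = 3) in shChi3l1 and 1.49 ± 0.604 TPM (SD, n = 4) in shSC libraries. Neighbours in that order overlapped within 1 SD in both groups, except Akt2 and Rptor in the shSC group. Akt2 stood above Rptor in all 7 libraries, at 6.63 ± 3.60 against 3.15 ± 2.90 TPM (SD, n = 3) in shChi3l1 and 7.28 ± 2.57 against 1.23 ± 0.798 TPM (SD, n = 4) in shSC libraries. Pik3cg and Akt2 changed places between libraries, with Pik3cg higher in 2 of 7. Summed exon length counts every annotated exon, so TPM of a gene with exons these cells do not use is too low.

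Beyond the 9 members, 90 genes of the same pathway were grouped by role, and 87 of them were tested. None passed an adjusted edgeR p of 0.05 in either direction, and 1 had an unadjusted p under 0.05. Fitted log2 fold changes were above 0 in 64 of the 87 and below 0 in 23, with a median of 0.23. Over all tested genes 57.6% were above 0, with a median of 0.07. Irs1, Foxo6 and Pdk4 had too few reads to be tested.

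Receptors and adaptors feed the kinase at the membrane. Of 14 tested, 9 were above 0 and 5 below, and the median was 0.34 on the log2 scale. Cx3cr1, the fractalkine receptor, had 108, 321 and 676 CPM in shChi3l1 libraries 1 to 3, against 117, 191, 159 and 96.1 CPM in shSC libraries 1 to 4. That gave a log2 fold change of 1.39 (SE 0.56), an unadjusted edgeR p of 0.0348 and an adjusted p of 0.9998, and Cx3cr1 is also a microglial gene, highest where microglia markers were highest. Trem2, a lipid receptor that signals through an adaptor to the kinase, was at 0.74 (SE 0.41). Csf1r, which encodes the receptor for the main growth factor of macrophages, was singled out after its values were seen and is also 1 of the 10 macrophage markers. It had 249, 2613 and 2359 CPM in shChi3l1 libraries 1 to 3, against 506, 1386, 540 and 1002 CPM in shSC libraries 1 to 4. As with Pik3cd, shChi3l1 1 was below and the other 2 shChi3l1 libraries above every shSC library. The summed level of the 10 macrophage markers, Csf1r included, did not follow this course. That sum was highest in shChi3l1 1, at 23910 CPM, against 20050 and 20980 CPM in shChi3l1 libraries 2 and 3. Over all tested genes, 21.6% had their lowest value in shChi3l1 1, so a low level in that library is not particular to the pathway genes. Gab2, an adaptor docked to activated receptors, and the B-cell adaptor for the kinase, Pik3ap1, also noted after the fact, had their lowest value in shChi3l1 1 and their highest in shChi3l1 2.

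The phosphoinositide phosphatases were all above 0, 7 of 7, beside 57.6% of all tested genes, at a median of 0.38 on the log2 scale and no call. Inpp5d encodes SHIP1, the blood-cell phosphatase, and had 23.9, 246 and 208 CPM in shChi3l1 libraries 1 to 3, against 45.2, 157, 61.6 and 107 CPM in shSC libraries 1 to 4. It thus had the same low and high libraries as Pik3cd, and a log2 fold change of 0.79 (SE 0.71). Inpp5k, an inositol phosphatase of the endoplasmic reticulum, was at 0.32 (SE 0.31).

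AKT kinases with their regulators had 7 of 8 genes above 0 and a median of 0.16. Phlpp2, which encodes an AKT phosphatase, was at 0.60 (SE 0.90) from 1 to 34 reads a library. Of the TSC complex and RHEB, 2 of 4 genes were above 0, with a median of 0.21. Tsc1 was at 0.44 (SE 0.64) and Tsc2 at 0.45 (SE 0.84). Tsc2 had 1.75 CPM in shChi3l1 1 and 27.1 and 36.3 CPM in the other 2 shChi3l1 libraries, against 5.67 to 25.4 CPM in shSC libraries. The 2 genes encode the complex that restrains mTOR complex 1, and neither difference exceeded its standard error.

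Subunits of mTOR complex 1 had 4 of 5 genes above 0 and a median of 0.12. Deptor, which encodes an inhibitor in both mTOR complexes, was at 0.55 (SE 0.57), and Mlst8, a subunit of both, at 0.12 (SE 0.38). The subunits of mTOR complex 2 divided evenly, 2 above 0 and 2 below, with a median of -0.02. Prr5 and Prr5l encode related proteins of complex 2 and went opposite ways, at -0.47 (SE 0.48) and 0.36 (SE 0.42). Rptor was thus alone among the complex subunits in exceeding its standard error.

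Lysosomal amino acid sensing had 12 of 18 genes above 0 and a median of 0.13. Nprl3, part of the complex that holds the pathway off when amino acids are scarce, was at 0.58 (SE 0.39), and Flcn, which encodes folliculin, at 0.60 (SE 0.42). Among mTOR complex 1 substrates and effectors 7 of 12 were above 0, with a median of 0.08. Grb10, an adaptor that dampens insulin receptor signals, was at -1.67 (SE 0.84), and its reads were highest in shSC 4, at 3.35 CPM against 0.366 to 0.955 CPM in the other 6 libraries. ShSC 4 was also the library highest in glioma and glial markers, and the part of those cells was not tested. Tfeb, which encodes a lysosome-building transcription factor, was at 0.49 (SE 0.48). Lamtor5 and Rps6, 2 short genes noted after their values were seen, ran against Pik3cd and Rptor. Lamtor5 had 599.7, 134 and 147 CPM in shChi3l1 libraries 1 to 3, against 512, 129, 183 and 189 CPM in shSC libraries 1 to 4, so that replicate 1 was highest under each hairpin.

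Of the FOXO factors tested, 3 of 3 were above 0, with Foxo4 under 1 CPM in every library. FOXO target genes had 10 of 12 above 0 and a median of 0.41, with no call and no gene at an unadjusted p under 0.05. Cited2, a transcriptional co-regulator, had 45.6, 33.9 and 24.9 CPM in shChi3l1 libraries 1 to 3, against 27.4, 18.3, 22.5 and 21.03 CPM in shSC libraries 1 to 4. Its fitted log2 fold change was 0.64 (SE 0.33). Klf2, a quiescence factor, was at 0.78 (SE 0.44). Both are also regulated by other inputs, so their levels do not report FOXO activity alone.

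**Figure D5:**
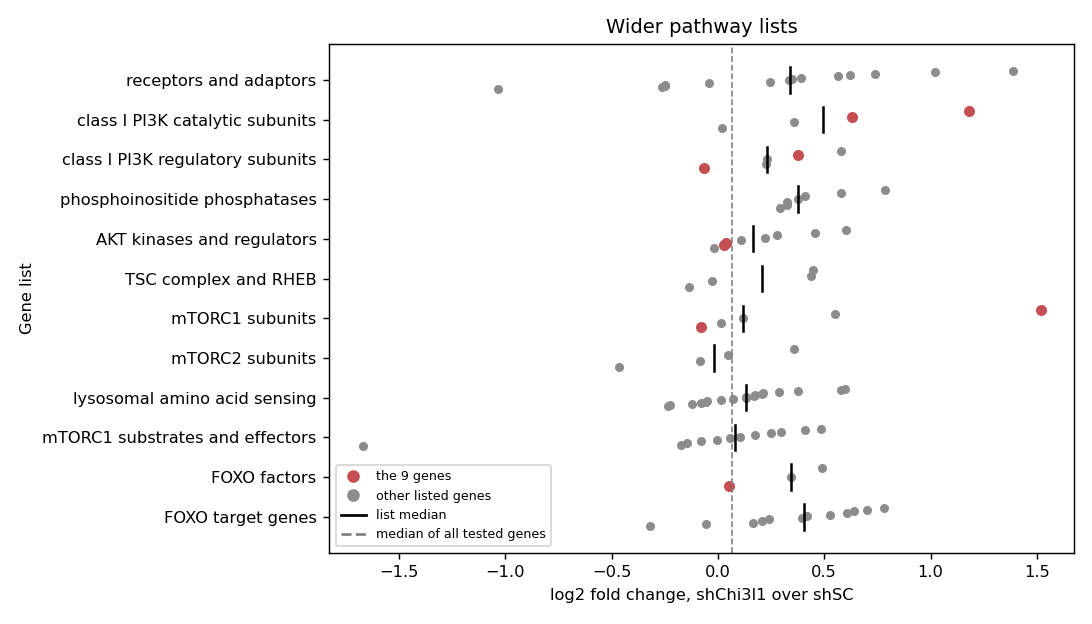
Log2 fold change of shChi3l1 over shSC for each tested gene of the 12 pathway lists, with the 9 members in red, list medians as black bars and the median of all tested genes, 0.07, as a dashed line. Most values lie within 1 of 0, with Rptor at 1.52, Cx3cr1 at 1.39 and Grb10 at -1.67 the farthest out, and no gene passed the adjusted threshold.

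Rptor, the member of widest spread, was compared with 5194 genes of at least 4 in mean log2 CPM over the 7 libraries. The 5 most similar, by root mean square distance between gene-centred log2 CPM, were Srgap2 at 0.491, Ssh2 at 0.513, Epb41l2 at 0.537, Il12b at 0.545 and Mbp at 0.619. The median distance over all compared genes was 1.55. Srgap2 had 5.75, 39.4 and 65.3 CPM in shChi3l1 libraries 1 to 3, against 6.77, 26.8, 12.4 and 25.8 CPM in shSC libraries 1 to 4. Srgap2 and Ssh2 encode regulators of the actin cytoskeleton, and Il12b a subunit of interleukins of the IL-12 family. All 5 were low in the replicate 1 libraries of both hairpins, where Rptor was lowest, which follows from their choice by likeness to Rptor. The likeness is a description of these 7 libraries.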

How the data were processed

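RNA of 7 sorted macrophage samples was made into cDNA with SMART-Seq chemistry and into libraries with Nextera XT, per the labels' protocols, which do not mark strand. The authors deposited raw read counts per gene for each library. The submitters' processing notes name the mm10 build with featureCounts, HISAT2 and Trim Galore. Tool versions and sort antibodies were not given in the sources used here. Genes were kept with edgeR's filterByExpr at a minimum count of 10 and given TMM factors. They were then tested in edgeR 4.0.16 (robust quasi-likelihood), shChi3l1 over shSC. Benjamini-Hochberg adjustment was over 15448 genes, with a threshold of 0.05. Log2 CPM values used a prior count of 0.5. The common biological coefficient of variation was 58.3%. Depth was 19169129 to 36502664 reads, so sampling error is small beside the spread between libraries. The replicate numbers were taken as pairs, as the labels name them. Same-numbered libraries deviated together from their group means (correlations 0.306, 0.260 and 0.188 over genes, all above the limit of 0.1). However, shChi3l1 3 with shSC 2 (0.322) and shChi3l1 2 with shSC 4 (0.2) also exceeded that limit. The correlations thus do not set same-numbered libraries apart from the others. No 2 libraries agreed within sampling noise, with a chi-square of at least 138.6 per gene over 21 pairs. Alternatives were DESeq2 1.42.0 size factors and Wald test, no low-count filter, each replicate left out, the replicate block, limma 3.58.1 voom, length-trend offsets (loess, span 0.5) and 2 libraries left out together. The main edgeR fit over 7 libraries was also run on simulated data. Named beyond the members were the 2 genes of smallest p in each pathway list (1 such gene is not reported here), the 5 genes most like the member of widest spread, and a few genes said to be chosen after their values were seen. The members and lists were chosen with earlier results of these data known. Of the 55385 IDs, 241 had no symbol.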

Additional observations from a re-analysis of the deposited data

How the results depend on the processing

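No member and no gene of the wider pathway lists passed an adjusted p of 0.05 under any of the 15 alternatives, where the lowest adjusted p of a member was 0.75. Over all genes the count called was 0, except 1 with DESeq2's Wald test. The number at an unadjusted p under 0.05 was 229, and it was 908 without shChi3l1 1, 927 with no low-count filter, 701 with voom, 435 with the replicate block, 350 with DESeq2's Wald test, 145 without shChi3l1 3 and shSC 4 together and 143 without shSC 4. The replicate block changed no call. Of 135 member values, 98 kept their sign and 37 did not, and the cause was not tested. Pik3cd (0.18 to 1.09), Pik3cg (0.50 to 1.69) and Rptor (0.67 to 2.01) stayed above 0 in all 15. Rptor had an unadjusted p under 0.05 in 5 of them. The log2 fold change of Pik3r1 turned to 0.22 with the replicate block and 0.0524 without shChi3l1 3 and shSC 4. That of Mtor turned to 0.15 and 0.27 under the same settings, and that of Foxo3 to -0.0160 with no low-count filter and -0.0440 with voom. Akt1 turned to -0.0105 with DESeq2 size factors, -0.00944 with no low-count filter, -0.0255 with the replicate block, -0.0102 with DESeq2's Wald test, -0.0158 with length-trend offsets, -0.0791 with those offsets and the replicate block together, and -0.0733 without shChi3l1 3 and shSC 4. In the same order of settings Akt2 turned to -0.0125, -0.00120, -0.0486, -0.0124, -0.11, -0.24 and -0.16. Leaving out 1 replicate at a time gave -0.35 to 0.12 for Pik3r1, -0.0846 to 0.78 for Pik3r5, -0.11 to 0.20 for Akt1, -0.17 to 0.30 for Akt2, -0.35 to 0.12 for Mtor and -0.14 to 0.18 for Foxo3. With 3 and 4 libraries this variable, a difference could exceed its standard error and still not be called, as for Rptor.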
